A study of Mus musculus with 15 samples.

Results

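Nucleolar ribosome biogenesis factors are the proteins that transcribe, modify, cut and assemble ribosomal RNA in the nucleolus. A list of 48 of their genes was followed in cultured mouse hepatocytes. The list was made by gene symbol, and 47 of the 48 genes had a probe set that carried their symbol alone. Npm3 was not analysed here. All 47 passed the filter on background probe sets, and they were part of 12423 genes that were tested together. Where a gene had several probe sets, the one with the largest SD over the 15 arrays stood for it.

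RNA came from primary hepatocytes of male C57BL/6 mice, and every group shared this strain and sex. No age, allele or drug is named in the labels. Freshly isolated cells (fresh, t0) were the baseline. The other groups were monolayers in a tissue culture dish (TCD) and aggregates in a rotating wall vessel (RWV), each kept for 4 h or for 24 h. Each of these 5 groups had 3 arrays, which were independent biological replicates per the labels, so every mean rests on n = 3 and this number limits the precision. Values are log2 signals from which the median of the 3 fresh arrays had been subtracted for each probe set. A value of 1 therefore means 2-fold above fresh cells, and 1 fresh array usually reads exactly 0. Levels of different genes cannot be compared, because the subtraction removed them.

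RNA polymerase I transcribes the ribosomal DNA into a long precursor. Box C/D particles guide methylation of that precursor and box H/ACA particles guide the change of uridine to pseudouridine. The small-subunit processome folds and cuts the part that becomes 18S rRNA, while other factors mature the large subunit. Resting hepatocytes of an adult liver divide rarely, and their ribosome production is known to rise when they leave quiescence, as in liver regeneration. Many of these genes are known targets of the transcription factor Myc, which binds E-boxes.

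The promoters of 40 of the 47 genes were found in the RefSeq table (build GRCm38.p6), and Bop1, Fbl, Npm1, Rrp12, Rrs1, Utp11l and Utp6 were not among them. The 250 bases before each start site were searched on both strands for 4 motifs. The E-box CACGTG stood in the promoters of 4 of the 40 genes (10%), namely Imp4, Nop2, Rrn3 and Utp18, and in those of 6.9% of the 27025 genes in the table. The ETS motif CCGGAAG stood in 10 (25.0%), against 7.8% of all genes: Brix1, Emg1, Gar1, Heatr1, Nhp2, Nolc1, Nop2, Polr1c, Utp18 and Utp3. The TATA box TATAAA stood in 2 (5.0%), Dkc1 and Pes1, against 14.3% of all genes. The NRF1 motif stood in none of the 40, against 0.9% of all genes. The median GC content was 57.0% in the windows of these genes and 52.4% in all windows. These matches describe letters in a window and say nothing of binding.

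The last 120 bases before the start are shown for 3 genes called in the test of whether the vessel difference changed between 4 h and 24 h. Each of these 3 holds an E-box or an ETS motif there, so they do not stand for all genes called in that test. Ebna1bp2, Gnl3, Ncl, Nop56, Rrp15 and Rrp9 were also called and had neither motif in the bases searched. Imp4 had an E-box and Utp3 an ETS motif, and no promoter was found for Npm1. Capitals mark the E-box and the ETS motif on either strand, and no marked motif overlaps another. Nop2 (chr6:125131763-125131882, plus strand) holds both, 60 and 38 bases before the start. Utp18 (chr11:93885767-93885886, minus strand) also holds both, with the ETS motif 106 and the E-box 20 bases before the start. Gar1 (chr3:129831397-129831516, minus strand) holds an ETS motif on the opposite strand, 43 bases before the start, and no E-box.
Nop2: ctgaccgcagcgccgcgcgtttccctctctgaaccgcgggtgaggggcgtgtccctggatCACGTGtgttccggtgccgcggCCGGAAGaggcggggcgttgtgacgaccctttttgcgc
Utp18: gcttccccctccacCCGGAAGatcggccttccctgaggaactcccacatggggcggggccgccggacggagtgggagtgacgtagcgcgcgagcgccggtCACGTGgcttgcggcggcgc
Gar1: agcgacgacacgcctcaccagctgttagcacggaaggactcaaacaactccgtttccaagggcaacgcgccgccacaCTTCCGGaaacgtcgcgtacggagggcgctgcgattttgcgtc

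One array stood apart. The 18 probe sets for hybridisation controls read 1.08 at the median on TCD 4 h replicate 2 and between -0.73 and 0.18 on the other 14 arrays, and its estimated array weight was 0.171 against 0.439 to 3.23. It gave the lowest value of its group in 39 of the 47 genes, and in 47.7% of all genes. Fresh replicate 3 was the lowest fresh array in 31 of the 47 genes and in 34.1% of all genes. Counts that rest on the 4 h TCD group are therefore also given without replicate 2, as are the values of single genes where it changed a call or moved them most.

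Among the 8 hepatocyte markers, 7 were lower than in fresh cells at 24 h in each vessel, with a mean log2 change of -1.15 to -1.11 on the TCD arrays and -1.17 to -1.04 on the RWV arrays. Between the vessels at 24 h Apob and Hnf4a were higher and Cps1 and Cyp2e1 lower in RWV. Whether a marker was present at all cannot be read without levels. Of the cholangiocyte markers 3 of 6 were measured, and their mean was 2.21 to 2.77 in TCD and 1.98 to 2.27 in RWV at 4 h, then 2.74 to 3.97 in TCD and 0.82 to 1.29 in RWV at 24 h, with 2 of the 3 (Krt19 and Epcam) lower in RWV at 24 h. All 7 Kupffer cell markers were measured, with means of 0.75 to 1.10 and 0.49 to 0.88 at 4 h and 0.81 to 1.52 and 0.90 to 2.57 at 24 h (TCD and RWV), and Cd68 alone was called between the vessels at 24 h, lower in RWV, after a rise from fresh cells of 9.99 in TCD and 8.78 in RWV. In TCD at 24 h the Kupffer mean rests on Cd68, since the other 6 were on average lower than in fresh cells. In RWV at 24 h those 6 were on average higher than in fresh cells. The other 6 had differences between the vessels above 0 at 24 h, from 0.07 (Clec4f) to 1.68 (Cd5l), and Marco was called higher than fresh in RWV (1.74). Stellate cell markers (5 of 7 measured) had means of 1.03 to 1.14 in TCD and -0.04 to 0.38 in RWV at 24 h, and this mean rests on Reln, which was 5.53 above fresh in TCD and was called lower in RWV. The other 4 were between -0.11 and -0.04 in TCD against fresh. Markers of sinusoidal endothelium (4 of 6 measured) had means of -0.61 to -0.37 in TCD and -1.23 to -0.39 in RWV at 24 h, with Stab2 called lower in RWV (-2.36) and the others at 0.08 to 0.40. The 1 leukocyte marker of 6 that was measured was not called. Of the proliferation markers 4 of 8 were measured, and none of them differed between vessels by limma (adjusted p of at least 0.416). Relative to the fresh median, the difference between the 3′ and 5′ probe sets of Actb was -0.44 ± 0.0088 (SD, n = 3) in TCD and -0.23 ± 0.024 (SD, n = 3) in RWV at 24 h. In Gapdh it was -0.04 ± 0.018 (SD, n = 3) in TCD and -0.06 ± 0.0049 (SD, n = 3) in RWV. The part of these markers in the results was not tested, and in bulk RNA fewer cells of a type and less RNA per cell cannot be told apart.

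**Figure D1:**
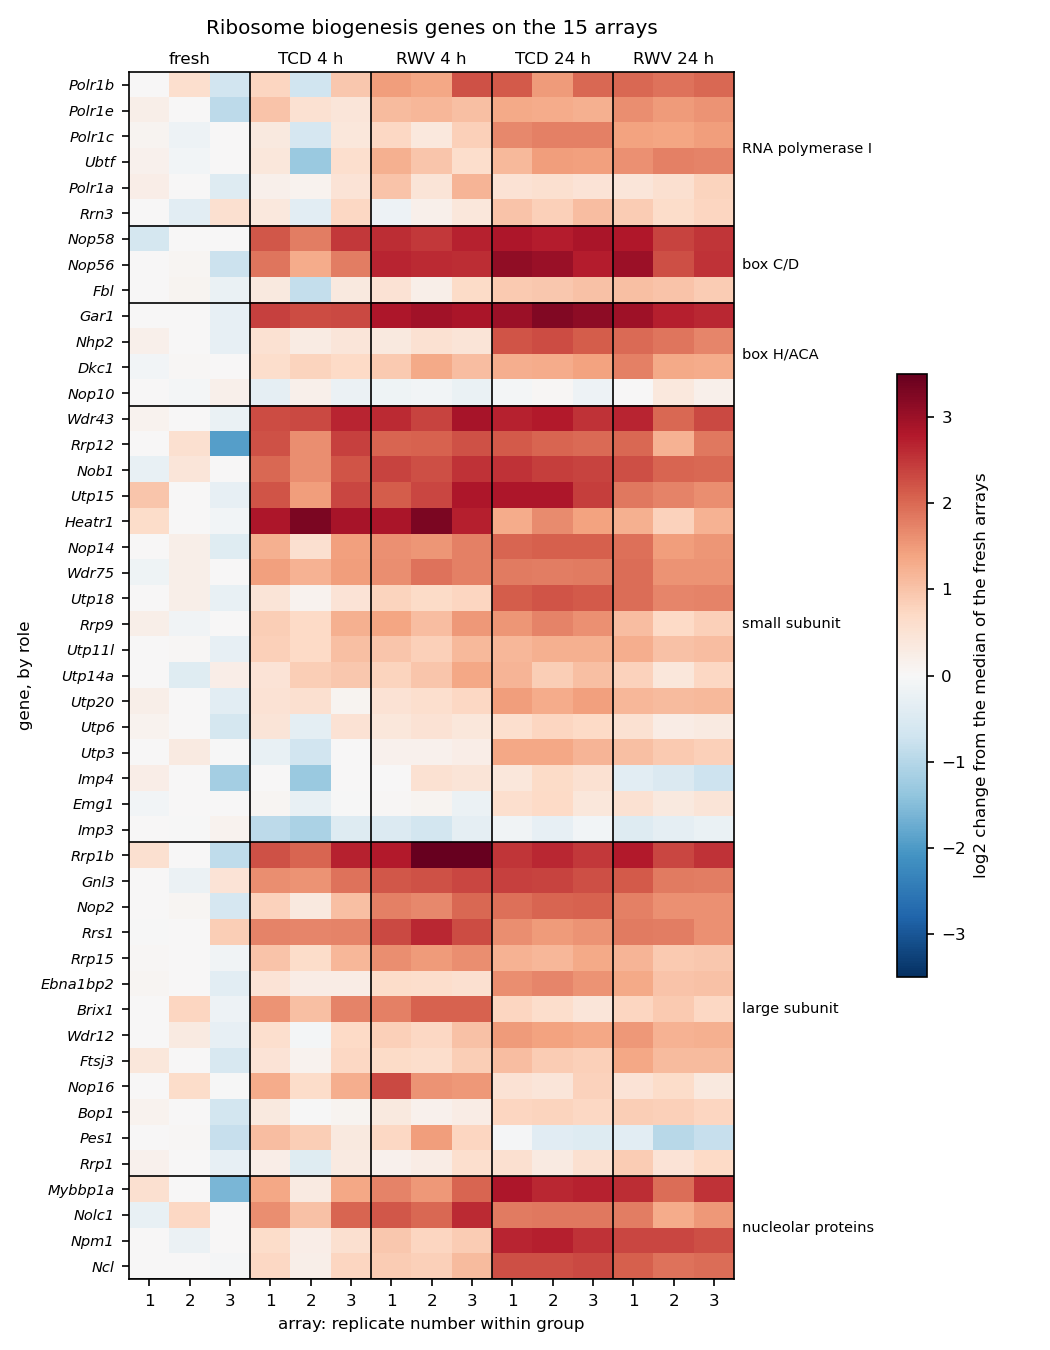
Log2 change from the median of the fresh arrays for 47 ribosome biogenesis genes (rows, ordered within each role by their rise in culture) on 15 arrays (columns, 3 per group). Red is above and blue below the fresh median. Of the 47 genes 32 are above 0 on all 12 cultured arrays, Imp3 is below 0 on all 12, and TCD 4 h replicate 2 is the lowest of the 12 in 35 genes. These counts were made for the 47 genes only.

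The first question was how culture itself changed these genes. Most of them rose. A gene was called changed at a Benjamini-Hochberg adjusted p below 0.05, over the 12423 genes of a comparison, in limma, and errors of differences are standard errors from its pooled spread. In TCD at 4 h 29 of the 47 were higher than in fresh cells and 1 was lower, where 9.54% of all genes were called higher and 15.9% lower. In RWV at 4 h 36 were higher and 1 was lower, with 15.1% and 14.4% of all genes. At 24 h 41 were higher in TCD (32.8% of all genes) and 40 in RWV (30.7% of all genes). None was lower at 24 h, where 23.4% and 19.2% of all genes were, and at an unadjusted p below 0.05 0 were lower in TCD and 1 in RWV. The median change over the 47 genes was 0.83 (TCD) and 1.12 (RWV) at 4 h and 1.45 (TCD) and 1.38 (RWV) at 24 h, and the median over all genes was between -0.07 and 0.01. With the mean of each gene's probe sets the medians over the 47 genes were smaller, at 0.50, 0.84, 1.24 and 1.18 in the same order. The called genes that rose at least 2-fold numbered 17, 26, 33 and 31 in these 4 groups. Over all 12423 genes 1826, 2005, 4764 and 3939 were called with a change of at least 2-fold in either direction. All 4 comparisons share the fresh arrays. When each array was centred on 8 reference genes, the medians over the 47 genes were 0.69, 0.78, 0.63 and 0.78 and those over all genes -0.19, -0.41, -0.83 and -0.59. Without TCD 4 h replicate 2 the counts in the 4 groups were 32, 39, 42 and 42 higher, with Imp3 the 1 lower gene in TCD at 4 h and in RWV at both times. In that fit 11.8%, 16.8%, 34.6% and 32.9% of all genes were called higher.

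**Figure D2:**
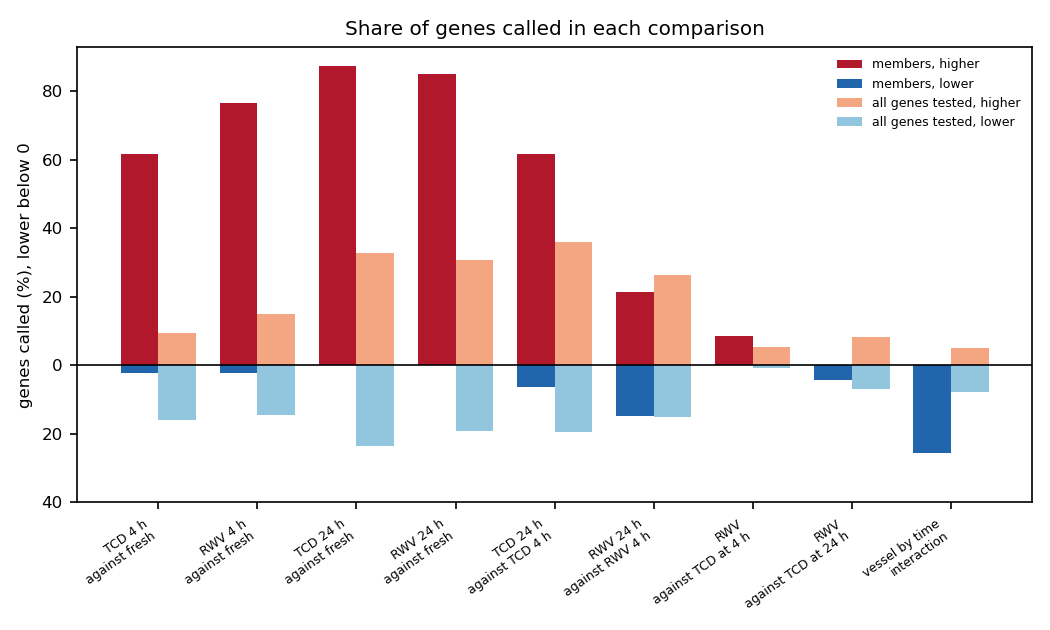
Share of genes called (adjusted p below 0.05, limma) in each of 9 comparisons, for the 47 ribosome biogenesis genes and for all 12423 genes tested. Bars above 0 are genes called higher and bars below 0 genes called lower in the first-named group. Against fresh cells the share of these genes called higher is above that of all genes in every culture. For RWV at 24 h against 4 h it is below.

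Genes of the RNA polymerase I machinery were nearly all higher than in fresh cells by 24 h. Of the 6, 1 was called higher in TCD at 4 h (Polr1e, a subunit, 0.88 ± 0.234, adjusted p = 0.0154) and 4 in RWV at 4 h, then 6 in TCD and 5 in RWV at 24 h. Polr1b, the second-largest subunit, rose most over the cultures. Polr1b read 0, 0.60 and -0.67 on the fresh arrays, 0.76, -0.71 and 0.93 in TCD and 1.45, 1.35 and 2.24 in RWV at 4 h. At 24 h Polr1b read 2.15, 1.48 and 2.01 in TCD and 2.02, 1.90 and 2.02 in RWV. The TCD arrays at 4 h overlapped the fresh ones, and those of the other 3 cultures lay above them. Its change from fresh cells was 0.35 ± 0.425 (adjusted p = 0.623) and 1.71 ± 0.425 (adjusted p = 0.00947) at 4 h, and 1.91 ± 0.425 (adjusted p = 0.00193) and 2.01 ± 0.425 (adjusted p = 0.00167) at 24 h (TCD and RWV). Without replicate 2 the TCD value at 4 h was 0.87 (adjusted p = 0.104). Rrn3, which brings the polymerase to the promoter, changed least. Rrn3 read 0, -0.38 and 0.57 on the fresh arrays, 0.37, -0.37 and 0.73 in TCD and -0.18, 0.17 and 0.39 in RWV at 4 h. At 24 h Rrn3 read 0.99, 0.82 and 1.09 in TCD and 0.89, 0.65 and 0.74 in RWV. Only the 24 h arrays lay apart from the fresh ones, and the rise was called in TCD (0.90 ± 0.278, adjusted p = 0.0144) and not in RWV (0.70 ± 0.278, adjusted p = 0.0548), where it passed with the replicate number as a block (adjusted p = 0.0191). Ubtf, which binds the ribosomal DNA, was -0.12 and 0.93 at 4 h, neither called, and rose by 1.34 ± 0.375 (adjusted p = 0.00863) and 1.69 ± 0.375 (adjusted p = 0.00233) at 24 h in TCD and RWV. Polr1c, shared with RNA polymerase III, was 0.08 ± 0.220 (adjusted p = 0.864) in TCD and 0.67 ± 0.220 (adjusted p = 0.0377) in RWV at 4 h. Without TCD replicate 2 the TCD values at 4 h were 0.48 (adjusted p = 0.0699) in Ubtf, with the sign turned, and 0.40 (adjusted p = 0.0450) in Polr1c, which was then called.

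Both partner proteins of the box C/D particles, Nop56 and Nop58, rose strongly in every culture. Nop58 read -0.61, 0.01 and 0 on the fresh arrays, 2.18, 1.79 and 2.46 in TCD and 2.58, 2.46 and 2.71 in RWV at 4 h. At 24 h Nop58 read 2.83, 2.75 and 2.85 in TCD and 2.81, 2.37 and 2.5 in RWV. All 12 cultured arrays lay above the fresh ones, at 2.34 ± 0.196 (adjusted p = 4.52e-06) and 2.78 ± 0.196 (adjusted p = 9.91e-07) at 4 h and 3.01 ± 0.196 (adjusted p = 7.75e-08) and 2.76 ± 0.196 (adjusted p = 2.61e-07) at 24 h (TCD and RWV). Fbl, the methyltransferase of the same particle, rose less and later. Fbl read 0, 0.11 and -0.23 on the fresh arrays, 0.34, -0.83 and 0.34 in TCD and 0.51, 0.20 and 0.66 in RWV at 4 h. At 24 h Fbl read 0.90, 0.95 and 1.02 in TCD and 1.06, 1.0 and 0.89 in RWV. In TCD at 4 h replicate 2 was the lowest of all 15 arrays. The rise was called at 24 h in TCD (1.0 ± 0.255, adjusted p = 0.00485) and RWV (1.02 ± 0.255, adjusted p = 0.00493) and not at 4 h (-0.01 ± 0.255, adjusted p = 0.982 and 0.50 ± 0.255, adjusted p = 0.172). Without replicate 2 the TCD value at 4 h was 0.38 (adjusted p = 0.0676).

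Among the 4 box H/ACA proteins, Gar1, Dkc1 and Nhp2 rose in every culture and Nop10 in none. Gar1 had the largest rise of the group, with all 12 cultured arrays above the fresh ones, by 2.41 ± 0.111 (adjusted p = 4.09e-08) and 2.96 ± 0.111 (adjusted p = 5.64e-09) at 4 h and 3.21 ± 0.111 (adjusted p = 6.36e-10) and 2.86 ± 0.111 (adjusted p = 2.43e-09) at 24 h (TCD and RWV). Nhp2 was up by 0.45 ± 0.126 and 0.48 ± 0.126 at 4 h and by 2.23 ± 0.126 and 1.89 ± 0.126 at 24 h, and the pseudouridine synthase Dkc1 by 0.71 ± 0.134, 1.12 ± 0.134, 1.34 ± 0.134 and 1.47 ± 0.134 in the same order. Nop10 read 0, -0.06 and 0.17 on the fresh arrays, -0.30, 0.17 and -0.21 in TCD and -0.14, -0.09 and -0.23 in RWV at 4 h. At 24 h Nop10 read -0.08, 0.04 and -0.17 in TCD and 0.01, 0.36 and 0.19 in RWV. The RWV arrays at 4 h lay below the fresh ones and the other cultures overlapped them. All arrays stayed within 0.36 of the fresh median, and none of the 4 changes was called (adjusted p from 0.339 to 0.546).

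Small-subunit factors made up 17 of the genes. Higher than in fresh cells were 10 in TCD and 12 in RWV at 4 h, and 15 in TCD and 14 in RWV at 24 h. Wdr43, a protein of the subcomplex that binds the precursor first, rose most over the 4 cultures. Wdr43 read 0.12, 0 and -0.24 on the fresh arrays, 2.30, 2.30 and 2.68 in TCD and 2.62, 2.37 and 2.88 in RWV at 4 h. At 24 h Wdr43 read 2.71, 2.77 and 2.53 in TCD and 2.67, 2.02 and 2.30 in RWV. The cultured arrays did not overlap the fresh ones, and the changes were 2.47 ± 0.184 (adjusted p = 1.87e-06) and 2.67 ± 0.184 (adjusted p = 8.69e-07) at 4 h and 2.71 ± 0.184 and 2.37 ± 0.184 at 24 h. Its relatives in that subcomplex were also up at 4 h: Heatr1 by 2.83 ± 0.221 and 2.78 ± 0.221, Utp15 by 1.78 ± 0.314 and 2.20 ± 0.314, and Wdr75 by 1.35 ± 0.130 and 1.74 ± 0.130 (TCD and RWV). Nob1, the enzyme that makes the last cut of 18S rRNA, was up by 1.90 ± 0.178 and 2.34 ± 0.178 at 4 h. Imp3, which joins the U3 RNA to the precursor, went the other way. Imp3 read 0, -0.02 and 0.13 on the fresh arrays, -0.91, -1.12 and -0.45 in TCD and -0.47, -0.64 and -0.31 in RWV at 4 h. At 24 h Imp3 read -0.11, -0.28 and -0.09 in TCD and -0.44, -0.32 and -0.23 in RWV. All 12 cultured arrays lay below the 3 fresh ones, and the fall was called at 4 h in TCD (-0.86 ± 0.151, adjusted p = 0.00121) and RWV (-0.51 ± 0.151, adjusted p = 0.0237) and missed the threshold at 24 h (-0.19 ± 0.151, adjusted p = 0.305 and -0.37 ± 0.151, adjusted p = 0.0632). With the replicate number as a block it was called in RWV at 24 h (adjusted p = 0.0199). Emg1, a methyltransferase of 18S rRNA, and Utp3 were not called at 4 h in either vessel, and both were higher at 24 h.

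Of the 13 large-subunit factors 9 were higher in TCD and 11 in RWV at 4 h, and 10 in TCD and 11 in RWV at 24 h. Rrp1b, a relative of a yeast factor that processes the large-subunit precursor, rose most. Rrp1b read 0.57, 0 and -0.88 on the fresh arrays, 2.22, 2.02 and 2.70 in TCD and 2.78, 3.5 and 3.51 in RWV at 4 h. At 24 h Rrp1b read 2.5, 2.65 and 2.48 in TCD and 2.79, 2.35 and 2.53 in RWV. No cultured array overlapped the fresh ones. Its changes were 2.42 ± 0.321 (adjusted p = 0.000159) and 3.37 ± 0.321 (adjusted p = 1.03e-05) at 4 h and 2.64 ± 0.321 and 2.66 ± 0.321 at 24 h. Its relative Rrp1 changed least. Rrp1 read 0.16, 0 and -0.29 on the fresh arrays, 0.23, -0.43 and 0.31 in TCD and 0.16, 0.26 and 0.60 in RWV at 4 h. At 24 h Rrp1 read 0.57, 0.31 and 0.56 in TCD and 0.88, 0.47 and 0.70 in RWV. Fresh and 4 h arrays overlapped, and the 24 h arrays lay above the fresh ones (0.52 ± 0.203, adjusted p = 0.0443 in TCD and 0.73 ± 0.203, adjusted p = 0.00975 in RWV). After centring on reference genes the TCD value was -0.30. Pes1, Bop1 and Wdr12 form 1 complex and did not move together on the probe sets tested. Bop1 was called at 24 h (0.93 ± 0.167 and 0.98 ± 0.167), Wdr12 was up by 1.41 ± 0.196 and 1.32 ± 0.196 at 24 h, and Pes1 was up at 4 h (1.01 ± 0.288 and 1.23 ± 0.288) and at -0.04 ± 0.288 and -0.46 ± 0.288 at 24 h, not called.

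The nucleolar proteins Ncl, Npm1, Nolc1 and Mybbp1a were higher in all 4 cultures. Mybbp1a read 0.57, 0 and -1.59 on the fresh arrays, 1.35, 0.31 and 1.35 in TCD and 1.73, 1.53 and 2.04 in RWV at 4 h. At 24 h Mybbp1a read 2.83, 2.64 and 2.69 in TCD and 2.60, 1.97 and 2.52 in RWV. In TCD at 4 h replicate 2 lay among the fresh arrays, and the other cultures lay above them. The change was 1.35 ± 0.453 (adjusted p = 0.0473) and 2.11 ± 0.453 (adjusted p = 0.00403) at 4 h and 3.06 ± 0.453 and 2.70 ± 0.453 at 24 h. Without replicate 2 the TCD value at 4 h was 1.69 (adjusted p = 0.0238). Ncl and the histone chaperone Npm1 rose mostly between 4 h and 24 h. Ncl went from 0.58 ± 0.135 and 0.94 ± 0.135 at 4 h to 2.28 ± 0.135 and 1.99 ± 0.135 at 24 h, and Npm1 from 0.54 ± 0.115 and 0.92 ± 0.115 to 2.69 ± 0.115 and 2.37 ± 0.115.

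The second question was how each vessel moved from 4 h to 24 h. In TCD 29 of the 47 genes rose further and 3 fell, with 36.1% of all genes called higher and 19.5% lower. In RWV 10 rose and 7 fell, with 26.4% and 15.1% of all genes. The median change was 0.65 in TCD and 0.01 in RWV, against 0.06 and 0.04 over all genes. Centring each array on 8 reference genes moved the median of all genes to -0.62 (TCD) and -0.22 (RWV) and turned the sign of the medians over these genes to -0.03 and -0.25. Without TCD 4 h replicate 2 the counts were 23 higher and 4 lower in TCD and 15 higher and 9 lower in RWV.

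Higher at 24 h than at 4 h in both vessels were 10 genes: Bop1, Ebna1bp2, Emg1, Ncl, Nhp2, Npm1, Polr1c, Utp18, Utp20 and Utp3. Npm1 had the steepest rise, by 2.15 ± 0.115 (adjusted p = 3.13e-08) in TCD and 1.45 ± 0.115 (adjusted p = 1.12e-06) in RWV, followed in TCD by Utp18 (1.81 ± 0.131) and Nhp2 (1.79 ± 0.126). Brix1, Heatr1 and Pes1 were lower at 24 h in both vessels on the probe sets tested, as were 1453 of all genes. In TCD the other probe set of Brix1 and that of Pes1 were called in the opposite direction. Heatr1 fell by 1.55 on the log2 scale in TCD and by 1.87 in RWV, to 1.46 and 1.09, which is still above fresh cells. Rrp9, a protein of the U3 particle, rose in TCD (0.71 ± 0.164, adjusted p = 0.00281) and fell in RWV (-0.47 ± 0.164, adjusted p = 0.0383). A further 18 genes rose in TCD and were not called in RWV, Nop16, Rrp15 and Rrs1 were lower in RWV and not called in TCD, and 12 were called in neither. Nob1, among those 18 (0.48 ± 0.178, adjusted p = 0.0356 in TCD), missed the threshold when the replicate number was a block (adjusted p = 0.0515), and Rrp15 (0.32 ± 0.128, adjusted p = 0.0522 in TCD) passed it (adjusted p = 0.0385). Without TCD 4 h replicate 2 neither was called, at 0.32 (adjusted p = 0.149) in Nob1 and 0.17 (adjusted p = 0.205) in Rrp15.

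The third question was how aggregates differed from monolayers. At 4 h these genes stood higher in RWV than in TCD: 44 of the 47 differences were above 0, with a median of 0.42 against -0.01 over all genes, and 0.28 without TCD 4 h replicate 2. After centring on the reference genes the medians were 0.22 and -0.21. All 3 RWV arrays lay above all 3 TCD arrays in 24 genes, as in 14.5% of all genes, and in 24 genes when TCD replicate 2 was left out (16.3% of all genes). Called higher were 4 genes, Nop2, Nop56, Rrp15 and Gar1, where 5.50% of all genes were. None was lower (0.668% of all genes), and at an unadjusted p below 0.05 limma gave 26 higher and 0 lower. Over all 12423 genes 2501 passed that unadjusted cut, in either direction. With only the 4 h arrays of the vessels fitted, none was called (smallest adjusted p = 0.0568, and 16 higher at an unadjusted p below 0.05), and after centring Gar1 was not called. The 4 calls are 8.51% of the 47 genes, near the share of all genes.

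Nop2, a methyltransferase of 28S rRNA whose promoter holds both motifs shown above, had the largest difference that was called. Nop2 read 0, 0.08 and -0.59 on the fresh arrays, 0.81, 0.34 and 1.05 in TCD and 1.77, 1.67 and 2.0 in RWV at 4 h. At 24 h Nop2 read 1.92, 2.05 and 2.07 in TCD and 1.77, 1.61 and 1.61 in RWV. At 4 h all RWV arrays lay above all TCD arrays, and at 24 h all lay below. The difference of RWV from TCD was 1.08 ± 0.196 (adjusted p = 0.00826) at 4 h, and 0.89 (adjusted p = 0.0232) without TCD replicate 2. At 24 h it was -0.35 ± 0.196 (adjusted p = 0.294).

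Gar1 read 0, 0.01 and -0.29 on the fresh arrays, 2.39, 2.27 and 2.30 in TCD and 2.83, 2.94 and 2.85 in RWV at 4 h. At 24 h Gar1 read 3.00, 3.23 and 3.12 in TCD and 2.95, 2.72 and 2.64 in RWV. The vessels did not overlap at either time, with RWV above TCD at 4 h and below it at 24 h. The difference was 0.55 ± 0.111 (adjusted p = 0.0129) at 4 h, 0.53 (adjusted p = 0.0373) without TCD replicate 2, and -0.35 ± 0.111 (adjusted p = 0.0546) at 24 h, which was not called.

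Nop56 read 0, 0.07 and -0.74 on the fresh arrays, 1.87, 1.29 and 1.79 in TCD and 2.67, 2.61 and 2.58 in RWV at 4 h. At 24 h Nop56 read 3.10, 3.01 and 2.75 in TCD and 3.00, 2.27 and 2.52 in RWV. RWV lay above TCD at 4 h, and the vessels overlapped at 24 h. The difference was 0.97 ± 0.238 (adjusted p = 0.0331) at 4 h, 0.79 (adjusted p = 0.116) and no longer called without TCD replicate 2, and -0.36 ± 0.238 (adjusted p = 0.397) at 24 h.

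Rrp15, a large-subunit factor known from yeast, was the remaining gene called at 4 h. Rrp15 read 0.04, 0 and -0.11 on the fresh arrays, 1.0, 0.63 and 1.15 in TCD and 1.62, 1.49 and 1.61 in RWV at 4 h. At 24 h Rrp15 read 1.23, 1.16 and 1.34 in TCD and 1.19, 0.92 and 0.94 in RWV. At 4 h the vessels did not overlap and at 24 h they did. The difference was 0.65 ± 0.128 (adjusted p = 0.0121), and 0.50 (adjusted p = 0.0253) without TCD replicate 2. At 24 h it was -0.23 ± 0.128 (adjusted p = 0.296). Polr1b and Ubtf had differences with a wider spread, which were not called: 1.35 ± 0.425 (adjusted p = 0.0888) and 1.05 ± 0.375 (adjusted p = 0.133), where TCD replicate 2 read -0.71 and -1.29. Without that array they were 0.84 (adjusted p = 0.250) and 0.46 (adjusted p = 0.190).

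**Figure D3:**
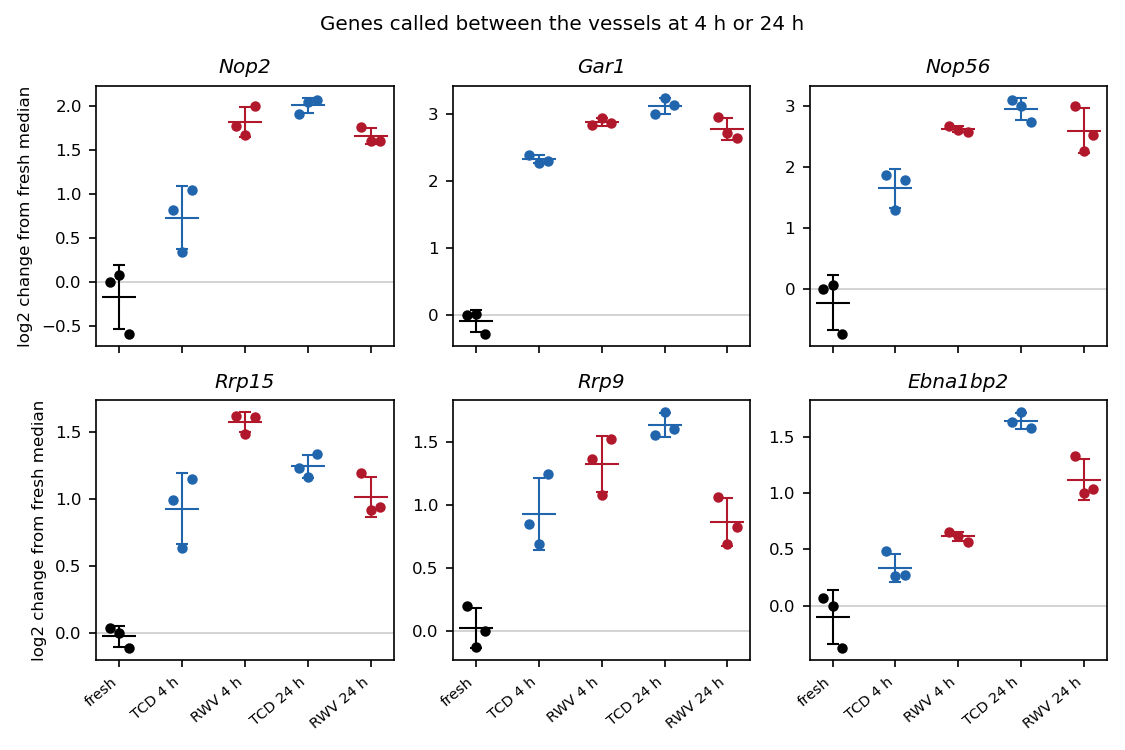
Log2 change from the median of the fresh arrays on each array (points), with the mean and SD of 3 arrays (bars), for the 6 genes called between vessels at 4 h (Nop2, Gar1, Nop56, Rrp15) or at 24 h (Rrp9, Ebna1bp2). Black is fresh, blue TCD and red RWV. In the genes called at 4 h red stands above blue at 4 h, and in all 6 its mean is below blue at 24 h.

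At 24 h the order was turned for most of these genes. Of the 47 differences 34 were below 0, with a median of -0.28 against -0.00 over all genes. After centring on the reference genes the medians were -0.06 and 0.22. All 3 RWV arrays lay below all 3 TCD arrays in 21 genes, where 19.4% of all genes did, and above them in 3 (Ftsj3, Polr1e and Ubtf; 19.7% of all genes). Called lower were 2 genes, Rrp9 and Ebna1bp2, and none was called higher, where 6.86% and 8.36% of all genes were. At an unadjusted p below 0.05 limma gave 10 lower and 0 higher, where 3331 of all 12423 genes passed in either direction. With only the 24 h arrays of the vessels fitted, 11 were called lower and 1 higher (9.10% and 9.87% of all genes), and 18 were lower and 2 higher at an unadjusted p below 0.05. All 17 small-subunit factors had a difference below 0, from -1.07 (Imp4) to -0.09 (Utp11l), and 11 of them did not overlap. Of the 6 polymerase I genes 4 were above 0.

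Rrp9 read 0.19, -0.13 and 0 on the fresh arrays, 0.85, 0.69 and 1.25 in TCD and 1.37, 1.08 and 1.53 in RWV at 4 h. At 24 h Rrp9 read 1.56, 1.74 and 1.61 in TCD and 1.07, 0.69 and 0.83 in RWV. The vessels overlapped at 4 h, and at 24 h all RWV arrays lay below all TCD arrays. The difference was 0.40 ± 0.164 (adjusted p = 0.193) at 4 h and -0.77 ± 0.164 (adjusted p = 0.00709) at 24 h.

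Ebna1bp2, a large-subunit factor, showed the same order at 24 h. Ebna1bp2 read 0.07, 0 and -0.38 on the fresh arrays, 0.48, 0.27 and 0.27 in TCD and 0.65, 0.62 and 0.57 in RWV at 4 h. At 24 h Ebna1bp2 read 1.63, 1.72 and 1.58 in TCD and 1.32, 1.0 and 1.03 in RWV. RWV lay above TCD at 4 h and below it at 24 h, with no overlap at either time. The difference was 0.28 ± 0.128 (adjusted p = 0.251) at 4 h and -0.52 ± 0.128 (adjusted p = 0.0161) at 24 h. When TCD 4 h replicate 2 was left out, 7 genes were called lower in RWV at 24 h: Ebna1bp2, Imp4, Ncl, Npm1, Rrp9, Utp15 and Utp3. In that fit 8.57% of all genes were called lower and 9.78% higher. The 24 h differences do not use that array, which enters only the pooled spread, and their median stayed at -0.28.

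The change of the vessel difference from 4 h to 24 h was tested as an interaction, the difference at 24 h minus the difference at 4 h. In 46 of the 47 genes it was below 0, Nop10 being the exception, with a median of -0.65 against -0.00 over all genes. The interaction was above 0 in 13 genes after centring on the reference genes, in 6 with array weights and in 5 without TCD 4 h replicate 2. After centring on the reference genes the medians were -0.23 and 0.42, and 4 genes were called, Imp4, Nop2, Nop56 and Rrp9 (4.63% of all genes were called lower). Called were 12 genes, all with a lower difference at 24 h (7.73% of all genes), and none with a higher one (4.93% of all genes, and 0 of these genes at an unadjusted p below 0.05 in limma). Without TCD 4 h replicate 2 the median was -0.51 and 12 genes were called lower (7.09% of all genes), Imp4 having dropped out and Polr1c having come in. RWV was above TCD at 4 h and below it at 24 h in 32 of the 47 genes (68.1%), and in 24.8% of the 12423 genes. It was so in 29 genes without TCD 4 h replicate 2 and in 24 after centring on the reference genes. In 11 of the 47 the vessels did not overlap at either time (3.66% of all genes): Ebna1bp2, Gar1, Gnl3, Mybbp1a, Ncl, Nob1, Nop14, Nop2, Npm1, Utp18 and Utp3.

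**Figure D4:**
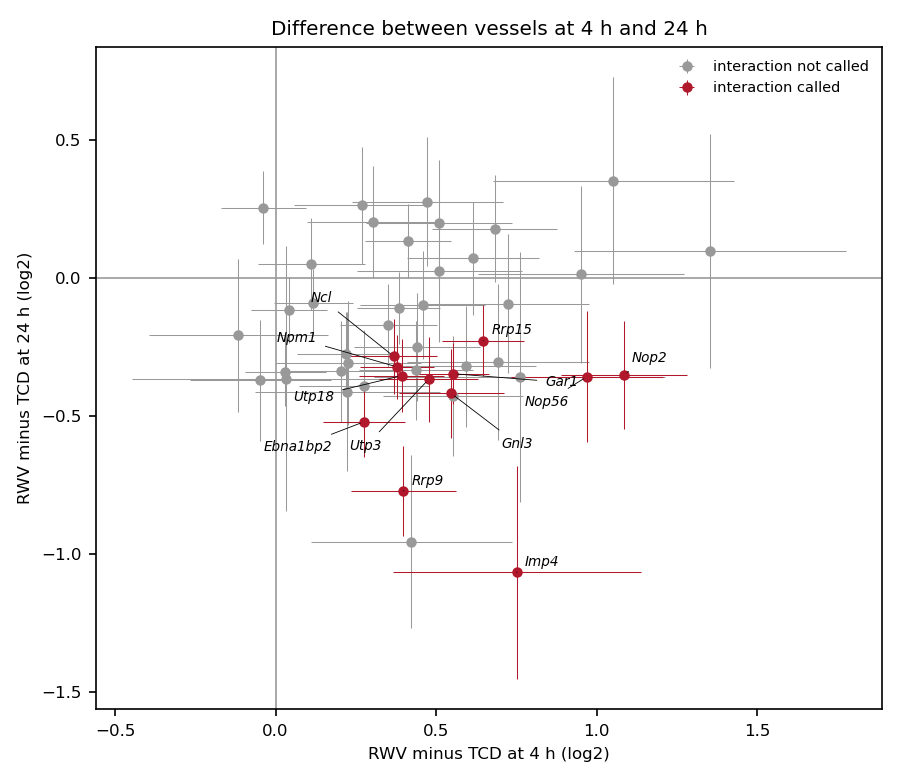
Difference between RWV and TCD at 4 h (horizontal axis) and at 24 h (vertical axis), in log2 units, for 47 ribosome biogenesis genes, with standard errors from limma. Red marks the 12 genes called in the interaction. Most points (32 of 47) lie in the lower right part of the plot, above 0 at 4 h and below 0 at 24 h.

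Beside the 6 genes already described, the interaction was called in Gnl3, Imp4, Ncl, Npm1, Utp18 and Utp3. Gnl3 (nucleostemin) is a nucleolar GTPase. Gnl3 read 0, -0.21 and 0.47 on the fresh arrays, 1.62, 1.57 and 1.91 in TCD and 2.17, 2.24 and 2.33 in RWV at 4 h. At 24 h Gnl3 read 2.40, 2.36 and 2.25 in TCD and 2.14, 1.83 and 1.79 in RWV. The vessels were apart at both times, with RWV first above and then below TCD, and the interaction was -0.97 ± 0.230 (adjusted p = 0.0176), and -0.90 (adjusted p = 0.0339) without TCD 4 h replicate 2.

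Ncl (nucleolin) binds the ribosomal RNA precursor. Ncl read 0.02, 0 and -0.04 on the fresh arrays, 0.74, 0.21 and 0.76 in TCD and 0.89, 0.82 and 1.10 in RWV at 4 h. At 24 h Ncl read 2.27, 2.25 and 2.30 in TCD and 2.09, 1.91 and 1.96 in RWV. Here too the vessels did not overlap and changed order, although TCD replicate 2 at 4 h lay well under replicates 1 and 3. The interaction was -0.65 ± 0.192 (adjusted p = 0.0446), and -0.47 (adjusted p = 0.0302) without TCD 4 h replicate 2.

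Npm1 read 0.02, -0.20 and 0 on the fresh arrays, 0.65, 0.22 and 0.57 in TCD and 0.94, 0.76 and 0.88 in RWV at 4 h. At 24 h Npm1 read 2.66, 2.71 and 2.54 in TCD and 2.35, 2.32 and 2.26 in RWV. All RWV arrays were above all TCD arrays at 4 h and below them at 24 h. The interaction was -0.70 ± 0.162 (adjusted p = 0.0150), and -0.57 (adjusted p = 0.0149) without TCD 4 h replicate 2.

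Utp18 and Utp3 are parts of the small-subunit processome. Utp18 read 0, 0.22 and -0.26 on the fresh arrays, 0.45, 0.12 and 0.47 in TCD and 0.79, 0.67 and 0.75 in RWV at 4 h. At 24 h Utp18 read 2.11, 2.21 and 2.15 in TCD and 1.96, 1.71 and 1.73 in RWV. The order of the vessels turned without overlap, and the interaction was -0.75 ± 0.186 (adjusted p = 0.0219), and -0.63 (adjusted p = 0.0336) without TCD 4 h replicate 2. Utp3 read 0, 0.32 and -0.01 on the fresh arrays, -0.25, -0.66 and 0.01 in TCD and 0.15, 0.14 and 0.24 in RWV at 4 h. At 24 h Utp3 read 1.35, 1.37 and 1.18 in TCD and 1.06, 0.91 and 0.82 in RWV. At 4 h TCD replicates 1 and 2 lay below all fresh arrays and all RWV arrays lay above all TCD arrays, and at 24 h all RWV arrays lay below all TCD arrays. The interaction was -0.84 ± 0.218 (adjusted p = 0.0261), and -0.66 (adjusted p = 0.0274) without TCD 4 h replicate 2.

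Imp4, a partner of Imp3, had the largest interaction and the widest error of the 12 genes called. Imp4 read 0.24, 0 and -1.20 on the fresh arrays, 0.02, -1.30 and 0.02 in TCD and 0.02, 0.54 and 0.44 in RWV at 4 h. At 24 h Imp4 read 0.39, 0.68 and 0.53 in TCD and -0.38, -0.51 and -0.72 in RWV. At 24 h the RWV arrays lay below fresh replicates 1 and 2 and below all TCD arrays, and at 4 h the vessels overlapped. The interaction was -1.82 ± 0.547 (adjusted p = 0.0488), and -1.38 (adjusted p = 0.0727) without TCD 4 h replicate 2.

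More than 1 probe set off the background was available for 28 of the 47 genes, and for some the choice decided the direction. In Pes1 the tested probe set had means of -0.30 and -0.71 at 24 h in TCD and RWV, and the other had 1.57 and 1.34. Both rose at 4 h, to 0.98 and 1.16 in RWV. Heatr1 had means of 3.01 and 2.96 at 4 h on the tested probe set, of 0.62 and 1.55 on a second, and of 0.02 and 0.09 on the remaining one. For Imp4 the tested probe set gave 0.53 in TCD and -0.54 in RWV at 24 h, another 1.41 and 0.47, and the last 1.37 and 1.44. RWV was below TCD on the first and second of these and not on the last.

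When every probe set off the background was tested, Brix1, Pes1, Utp6 and Wdr12 had probe sets called in opposite directions between 4 h and 24 h in TCD, and Utp6 also against fresh cells at 24 h, so the direction of these genes in those comparisons is uncertain. In the comparisons of the vessels no gene had opposite calls, but few probe sets were called. This does not show that probe sets agreed. Higher in RWV at 4 h were 4 genes (5 of 86 probe sets, with 5.39% of all probe sets called). At 24 h 3 genes were lower and 1 higher in RWV (3 and 1 of 86, with 14.4%). The interaction was called in 11 genes, all with a lower difference at 24 h (12 of 86, with 11.5%). Of the 28 genes with several probe sets, 1 had all of them called at 4 h and 0 at 24 h.

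**Figure D5:**
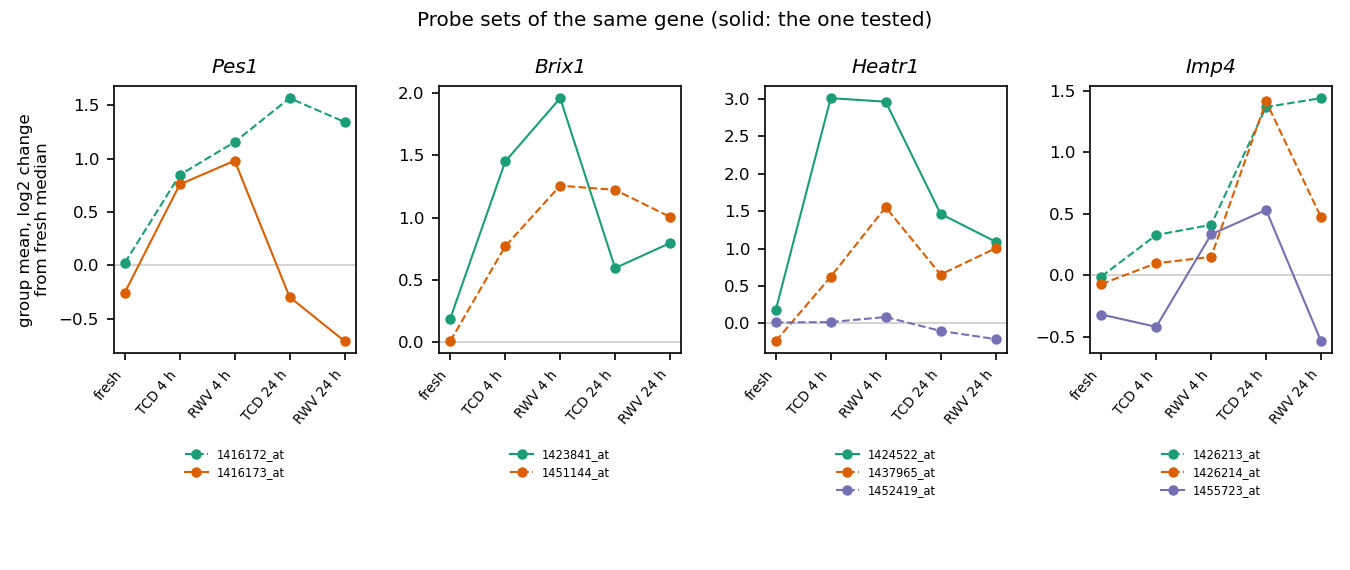
Group means of the log2 change from the fresh median (3 arrays each) for every probe set off the background of Pes1, Brix1, Heatr1 and Imp4. The solid line is the probe set tested and dashed lines are the others. In Pes1 and Brix1 the tested probe set falls between 4 h and 24 h while the mean of the other stays above 1, and in Heatr1 the height at 4 h differs from 3.01 to 0.02 between probe sets in TCD.

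Over the 15 arrays the 47 genes mostly rose and fell together. The median of the 1081 pairwise Pearson correlations was 0.697, 353 pairs exceeded 0.8, and the range was -0.82 to 0.991. All pairs share the same 5 groups and the same arrays, so these values describe the course over the groups. Correlations were taken among these 47 genes only, and whether they exceed those of other genes was not tested. Nop14, a small-subunit factor, had the highest median correlation with the others (0.86). Nop10 (-0.20), Imp3 (-0.15) and Pes1 (0.03) had the lowest.

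A wider list of 116 other ribosome biogenesis genes, of which 110 were tested, was set beside these. At 4 h 15 were higher and 0 lower in RWV than in TCD (13.6% and 0% of the list, median 0.36), where 5.50% and 0.668% of all genes were. At 24 h 3 were higher and 8 lower (2.73% and 7.27%, median -0.16), where 8.36% and 6.86% of all genes were. The interaction was called in 19 downwards and in 1 upwards (17.3% and 0.909%, median -0.57), against 7.73% and 4.93% of all genes. Against fresh cells 50 were higher and 3 lower in TCD and 72 higher and 2 lower in RWV at 4 h, and 91 higher and 3 lower in TCD and 93 higher and 3 lower in RWV at 24 h. The shares called higher were 45.5%, 65.5%, 82.7% and 84.5%, against 9.54%, 15.1%, 32.8% and 30.7% of all genes. Taf1d, a subunit of the factor that selects the ribosomal DNA promoter, differed most at 4 h. Taf1d read 0, -1.63 and 0.52 on the fresh arrays, -0.06, -1.32 and 0.09 in TCD and 2.11, 2.5 and 2.80 in RWV at 4 h. At 24 h Taf1d read 3.03, 2.95 and 3.28 in TCD and 3.66, 3.34 and 3.51 in RWV. All RWV arrays lay above all TCD arrays at both times, with a wide gap at 4 h and a narrow one at 24 h. The differences were 2.90 ± 0.480 (adjusted p = 0.00520) and 0.42 ± 0.480 (adjusted p = 0.702), and 2.45 (adjusted p = 0.0177) at 4 h without TCD replicate 2.

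Gnl2, a nucleolar GTPase of the large subunit, was higher in RWV at both times, by 2.14 ± 0.348 (adjusted p = 0.00474) at 4 h and 1.29 ± 0.348 (adjusted p = 0.0266) at 24 h. Gnl2 read -0.06, 0 and 0.50 on the fresh arrays, 1.34, 0.21 and 1.35 in TCD and 2.93, 3.07 and 3.33 in RWV at 4 h. At 24 h Gnl2 read 0.91, 0.42 and 1.30 in TCD and 2.46, 1.55 and 2.49 in RWV. No RWV array overlapped the TCD arrays of its time. Nol9, a kinase of the precursor RNA, was higher in RWV at 4 h by 1.22 ± 0.206 (adjusted p = 0.00580). Lower in RWV at 24 h were Las1l, its partner nuclease in the same cut, by -1.39 ± 0.245 (adjusted p = 0.00223), Tsr1, a late small-subunit factor, by -0.70 ± 0.142 (adjusted p = 0.00554), and Nufip1, an assembly factor of box C/D particles, by -0.66 ± 0.140 (adjusted p = 0.00712). The exosome subunits Exosc5 (0.78 ± 0.153, adjusted p = 0.00433) and Exosc7 (0.37 ± 0.103, adjusted p = 0.0306) were higher in RWV at 24 h. Against fresh cells at 24 h Exosc5 was called lower in TCD (-1.44) and in RWV (-0.66). Exosc7 was -0.08 in TCD, not called, and 0.29 in RWV, called higher. At 4 h Tsr1 had been higher in RWV than in TCD (0.88 ± 0.142, adjusted p = 0.00449).

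Myc, which is known to activate many of these genes, was up in all 4 cultures. Myc read 0, -0.74 and 0.40 on the fresh arrays, 1.46, 1.79 and 1.78 in TCD and 1.67, 2.07 and 1.73 in RWV at 4 h. At 24 h Myc read 2.09, 1.78 and 1.83 in TCD and 2.0, 2.01 and 1.80 in RWV. All cultured arrays lay above all fresh ones, by 1.79 ± 0.234 (adjusted p = 0.000138) and 1.94 ± 0.234 (adjusted p = 6.92e-05) at 4 h and 2.01 ± 0.234 (adjusted p = 1.06e-05) and 2.05 ± 0.234 (adjusted p = 1.36e-05) at 24 h. RWV differed from TCD by 0.15 ± 0.234 (adjusted p = 0.787) at 4 h and 0.04 ± 0.234 (adjusted p = 0.9999) at 24 h, neither called. Its relative Mycl did differ. Mycl read 0.06, -0.35 and 0 on the fresh arrays, -1.53, -2.01 and -1.43 in TCD and 0.14, 0.89 and 0.99 in RWV at 4 h. At 24 h Mycl read -2.07, -1.75 and -2.14 in TCD and -0.80, -1.06 and -0.12 in RWV. RWV lay above TCD at both times, by 2.33 ± 0.274 (adjusted p = 0.000847) at 4 h and 1.33 ± 0.274 (adjusted p = 0.00593) at 24 h. Mycn read 0, 2.98 and -0.04 on the fresh arrays, where 1 array stands far above the others, and its vessel differences were -0.12 and 0.04, not called.

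Max, the partner that Myc needs to bind DNA, was up by 1.27 ± 0.264 (adjusted p = 0.00329) in RWV at 4 h and by 1.44 ± 0.264 (adjusted p = 0.000473) in TCD and 1.40 ± 0.264 (adjusted p = 0.000736) in RWV at 24 h, and was 0.42 ± 0.264 (adjusted p = 0.284) in TCD at 4 h. Without TCD 4 h replicate 2 that last value was 0.76 (adjusted p = 0.0202) and was called. Among proteins that compete with Myc for Max, Mxi1 (1.52 and 1.14) and Mnt (1.75 and 0.99) were higher than fresh at 24 h in TCD and RWV. Mxd1 was called higher than fresh in TCD (2.08 at 4 h and 2.24 at 24 h) and was 0.23 and 0.87 in RWV, not called. Mxd4 was higher in RWV than in TCD at 24 h (1.12 ± 0.343, adjusted p = 0.0455), as was Mlx, which pairs with some of them (0.71 ± 0.158, adjusted p = 0.00897). Against fresh cells Mxd4 was called lower in TCD (-1.44 at 4 h and -1.22 at 24 h) and in RWV at 4 h (-1.49), and was -0.10 in RWV at 24 h. Mlx was called lower than fresh in TCD at 24 h (-0.80) and was -0.09 in RWV. Mxd1 (-1.85 at 4 h and -1.36 at 24 h) and Mxd3 (-0.20 and 0.00) were not called between vessels, but without TCD 4 h replicate 2 Mxd1 was called at 4 h, at -2.61 (adjusted p = 0.0153).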

How the data were processed

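Microarrays measured RNA of 15 samples in 5 groups. The deposited log2 values had been made by the authors with GCRMA, per the submitters' processing notes, and its version was not given in the sources used here. The values themselves show that the median of the 3 fresh arrays had been subtracted, since it is 0 within 1e-06 in all 45101 probe sets, so no level remains. The base of the logarithm is that of GCRMA. Of the probe sets 34945 carried 1 gene symbol, 932 several, 9160 none, and 64 were controls. The platform annotation names Utp11 as Utp11l. Probe sets were taken as background when their SD was below 0.5 and they correlated above 0.8 with the array medians of the 20% least variable ones (19608 probe sets). The probe set with the largest SD stood for each gene. All 15 arrays were fitted in limma 3.58.1 (R 4.3.3, package data.table, version 1.17.8) with lmFit, contrasts.fit and eBayes, leaving 10 residual degrees of freedom, and p-values were adjusted over 12423 genes by Benjamini-Hochberg. On simulated data for RWV against TCD at 4 h (12000 genes) 79% of genes changed by 1 and 94% of those changed by 2 on the log2 scale were recovered, with 8 false calls of 181. The simulated spread came from probe sets of the whole array, background ones included. Its errors were independent and equal in all groups, with no outlying array. These rates therefore cannot be read as those of the real comparison. Once group means were removed, the closest array of another group had the same replicate number in 15 of 15 cases. However, all 3 correlations of these deviations between arrays of the same number exceeded 0.1 in only 5 of 10 pairs of groups. Among those pairs were TCD with RWV at 4 h and TCD at 4 h with 24 h. The pairing comes from the labels' numbers, which are not said to mark an animal or a day, and a fit with the number as a block was an alternative. Other alternatives changed the filter, the choice of probe set, the centring, the array weights and the arrays fitted. Values on every array are given for genes called between vessels or in the interaction and for the extremes of each role group. Of the wider list the 3 genes with the largest called change each way between vessels are named, and of the Myc network every gene. The genes and lists were chosen with earlier results of these data known.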

Additional observations from a re-analysis of the deposited data

Results flagged for a closer look

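In 12 genes the difference between RWV and TCD itself differed between 4 h and 24 h, by the interaction in limma. The 24 h difference minus the 4 h difference was -1.82 in Imp4 (adjusted p = 0.0488), -1.43 in Nop2 (adjusted p = 0.00652), -1.33 in Nop56 (adjusted p = 0.0240), -1.17 in Rrp9 (adjusted p = 0.00742). It was -0.97 in Gnl3 (adjusted p = 0.0176), -0.90 in Gar1 (adjusted p = 0.00384), -0.87 in Rrp15 (adjusted p = 0.00920), -0.84 in Utp3 (adjusted p = 0.0261). In the remaining genes it was -0.80 in Ebna1bp2 (adjusted p = 0.0137), -0.75 in Utp18 (adjusted p = 0.0219), -0.70 in Npm1 (adjusted p = 0.0150), -0.65 in Ncl (adjusted p = 0.0446). In 8 of the 12 the vessels were separated at both times with the order turned, and Nop56, Rrp15, Rrp9 and Imp4 overlapped at 1 of the times. The interaction of Imp4 and Ncl was the least stable, as it was lost in 14 and 13 of 24 other settings. After centring on reference genes 4 of the 12 were called, Imp4, Nop2, Nop56 and Rrp9.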

How the results depend on the processing

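Of 52 results for named genes 28 had the same call in all 24 settings, among them the interaction of Nop2 and Rrp9 and the 24 h difference of Rrp9. Against 4 genes at 4 h, 16 were called with no filter (38.1% of 18193 genes, 7.32% higher), 11 with array weights (10.4% of all genes) and 0 with only the compared groups fitted (0.877%, smallest adjusted p 0.0568, 16 at an unadjusted p below 0.05 in limma). Against 2 genes at 24 h, 6 were called with the mean of probe sets (16.6% of all genes), 12 with only the compared groups (19.0%), 12 with array weights (24.6%), 4 with every probe set tested (added after seeing the data, 14.4% of probe sets) and 1 after centring on reference genes (21.1%). The interaction was called in 4 genes after centring (27.8% of all genes) and in 20 with array weights (22.2%), against 12 (12.7%). TCD at 4 h against fresh gave 15 with only these groups fitted (12.3% of all genes), TCD at 24 h against 4 h 21 after centring (11 higher and 10 lower, against 29 and 3, with 19.9% and 52.8% of all genes), and RWV at 24 h against 4 h 29 with array weights (47.5%). Centring put the median of all genes between -0.83 and 0.42 and reversed Rrp1 in TCD at 24 h against fresh (-0.30). The cause of these changes was not tested. Leaving out 1 array gave 3 to 9 genes at 4 h, 1 to 7 at 24 h and 7 to 16 in the interaction. It gave 24 to 33 and 34 to 40 against fresh at 4 h and 39 to 42 and 38 to 43 at 24 h (TCD and RWV), and 27 to 36 in TCD and 15 to 24 in RWV between times. At 4 h the count was 9 without TCD 4 h replicate 3 and 7 without fresh replicate 3. At 24 h it was 7 without TCD 4 h replicate 2, 6 without fresh replicate 3, 1 without RWV 24 h replicate 2, RWV 24 h replicate 3 or TCD 24 h replicate 2, and 3 without RWV 24 h replicate 1 or fresh replicate 1. With the replicate number as a block the counts were 4, 2 and 12 for the vessel comparisons (6.92%, 17.7% and 15.3% of all genes). Imp4 left the interaction (adjusted p = 0.0612) and Polr1c entered it (adjusted p = 0.0413). For RWV at 24 h against fresh Brix1 was lost (adjusted p = 0.0580) and Imp3 (lower, adjusted p = 0.0199) and Rrn3 (adjusted p = 0.0191) were gained, and in RWV between times Nop10 (adjusted p = 0.0449) and Rrn3 (adjusted p = 0.0342) were gained. Without levels, no distance of a signal from background can be given beyond the filter.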
